A study of Mus musculus with 6 samples.

Results

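JUNB bound 454 genomic regions of mouse bone marrow-derived macrophages (BMDMs) where neither C/EBPα nor IRF8 had a peak. These JUNB-only regions were selected on peak presence. The peaks of 6 chromatin immunoprecipitation sequencing (ChIP-seq) lists were merged where they shared at least 1 bp, and a merged region was kept when it held a JUNB peak in at least 1 condition and no C/EBPα or IRF8 peak in either condition. They made up 9.44% (8.65 to 10.3, Wilson 95% interval) of the 4807 regions with a JUNB peak, out of 60856 merged regions in all. The other 4353 JUNB regions, called partnered here, held a C/EBPα peak alone (250), an IRF8 peak alone (717) or peaks of both factors (3386).

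The cells were primary macrophages of wild-type C57BL/6 mice aged 8 to 12 weeks. Marrow was differentiated for 6 days with L929 supernatant as the source of macrophage colony-stimulating factor, and the macrophages were either left without IL-4 (control) or given 20 ng/ml IL-4 for 1 h. Each of the 3 antibodies was used on 1 control sample and 1 IL-4 sample, so no value below has a replicate, and every interval covers the counting error over regions alone. Sequencing depth is unknown, and which of 2 library kits served which sample is not given, so a difference between the control and IL-4 libraries cannot be told apart from a difference in depth, kit or background. The JUNB lists were short, with 3940 control and 2325 IL-4 peaks, against 24486 to 42076 peaks in the C/EBPα and IRF8 lists. Of 6 macrophage marker genes, 5 were the nearest gene to a C/EBPα or IRF8 peak. Of markers of other cells, the same held for 3 of 4 fibroblast, 2 of 4 neutrophil, 1 of 4 mast cell, 1 of 3 B cell and 1 of 3 T cell genes. A nearest peak is not expression, and whether other cells took part in the JUNB-only regions was not tested.

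JUNB is a basic leucine zipper protein. It pairs with FOS, ATF or BATF family members to form AP-1, which recognises the palindrome-like site TGACTCA. In macrophages AP-1 binds enhancers together with lineage-determining factors, among them PU.1, C/EBP proteins, RUNX1 and IRF8, and IRF8 often contacts DNA beside PU.1 at composite sites. C/EBPα recognises a dyad of the form TTGCNNAA. PU.1 and other factors were not analysed here, and a list records called peaks, so weak C/EBPα or IRF8 signal below the calling limit is not seen.

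In each condition class, 4 of the 8 highest-scoring JUNB-only regions held an exact AP-1 site within 100 bp of the peak centre. Of these, 10 are shown, since they are the sequences that AP-1 recognises, as 61 bp of the mm10 plus strand (GRCm38 reference) around the site nearest to the centre. Capitals mark TGACTCA or its reverse complement, and each line is named by the nearest gene. With a JUNB peak in both conditions they were chr17:84107674-84107734 near 4933433H22Rik, chr6:143366069-143366129 near D6Ertd474e and chr2:153543106-153543166 near 8430427H17Rik. With a peak in control alone they were chr1:80642040-80642100 near Dock10, chr5:139215331-139215391 near Sun1, chr5:3494499-3494559 near Fam133b and chr4:64087842-64087902 near Tnc. With a peak after IL-4 alone they were chr11:5009924-5009984 near Ap1b1, chr11:30676299-30676359 near Acyp2 and chr6:137843498-137843558 near Dera.
4933433H22Rik (both conditions): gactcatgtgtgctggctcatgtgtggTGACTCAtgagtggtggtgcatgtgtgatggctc
D6Ertd474e (both conditions): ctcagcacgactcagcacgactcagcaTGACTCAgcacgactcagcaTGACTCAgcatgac
8430427H17Rik (both conditions): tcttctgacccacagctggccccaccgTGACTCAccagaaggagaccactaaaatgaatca
Dock10 (control alone): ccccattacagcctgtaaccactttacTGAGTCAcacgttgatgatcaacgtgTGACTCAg
Sun1 (control alone): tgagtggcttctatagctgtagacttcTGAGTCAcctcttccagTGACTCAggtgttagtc
Fam133b (control alone): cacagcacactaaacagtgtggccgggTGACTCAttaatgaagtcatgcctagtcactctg
Tnc (control alone): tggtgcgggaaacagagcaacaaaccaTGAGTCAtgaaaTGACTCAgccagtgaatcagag
Ap1b1 (IL-4 alone): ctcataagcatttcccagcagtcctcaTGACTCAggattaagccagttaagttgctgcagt
Acyp2 (IL-4 alone): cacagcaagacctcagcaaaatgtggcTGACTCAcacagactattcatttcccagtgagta
Dera (IL-4 alone): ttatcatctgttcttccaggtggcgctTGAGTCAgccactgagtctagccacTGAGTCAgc

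Several of these regions held more than 1 site. Dock10 and Sun1 had 3 AP-1 sites each in the 200 bp around the peak centre, Dera had 6, and D6Ertd474e had 5, while Fam133b, Ap1b1, Acyp2 and 8430427H17Rik had 1. The site nearest to the centre lay 0.5 bp away in Sun1, 3.5 bp in Dock10 and 1.5 bp in D6Ertd474e, but 56.5 bp away in Ap1b1. Among all JUNB-only regions with a site, the median offset was 24.5 bp (quartiles 9.5 and 45.75) against 26.5 bp (12.5 and 46.5) in partnered regions.

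Other high-scoring JUNB-only regions were repeat sequence without an AP-1 site. They are shown as 60 bp of the plus strand around the peak centre, since the repeat unit can be read directly. The region near Nyap2 (chr1:81375625-81375684) and that near Rgmb (chr17:16150104-16150163) were runs of the 3-base units TTG and CAA, which are the same repeat read from opposite strands. The region near 5031425F14Rik (chr2:166441888-166441947) was annotated as a CCCTAA repeat, the unit that also caps chromosome ends. Its sequence mixed CCCTAA with the longer unit CCCTAAA.
Nyap2 (control alone): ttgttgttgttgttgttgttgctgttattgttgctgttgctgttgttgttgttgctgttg
Rgmb (control alone): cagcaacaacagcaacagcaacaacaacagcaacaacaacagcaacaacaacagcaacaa
5031425F14Rik (both conditions): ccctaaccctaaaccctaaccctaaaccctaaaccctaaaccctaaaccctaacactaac

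Most JUNB-only regions were called in a single condition. A JUNB peak was present in control alone at 252 regions (55.5%, 50.9 to 60.0), after IL-4 alone at 161 (35.5%, 31.2 to 40.0) and in both conditions at 41 (9.03%, 6.73 to 12.0). Over all JUNB regions, control alone accounted for 51.9%, IL-4 alone for 18.6% and both conditions for 29.5%. Against partnered regions, JUNB-only regions were called in both conditions less often (31.7% in partnered regions, a difference of -22.6 points, Newcombe 95% interval -25.3 to -19.4). They were called after IL-4 alone more often (16.8% in partnered regions, a difference of 18.7 points, 14.3 to 23.3). For control alone the difference of 3.98 points had an interval that included 0 (-0.85 to 8.72). The deficit of regions called in both conditions was also present against regions with C/EBPα alone (16.8%, a difference of -7.77 points, -13.4 to -2.67) and with IRF8 alone (22.9%, -13.8 points, -17.8 to -9.66). A C/EBPα or IRF8 peak can join JUNB peaks that do not overlap each other, which is possible in partnered regions alone (median width 450 bp against 179 bp). The rule thus favours this deficit. How many calls in both conditions arose this way was not tested. With every peak set to 200 bp the difference was -22.6 points (-25.2 to -19.4). These 200 bp peaks were still merged through C/EBPα and IRF8 peaks, so this value does not address the joining.

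**Figure D1:**
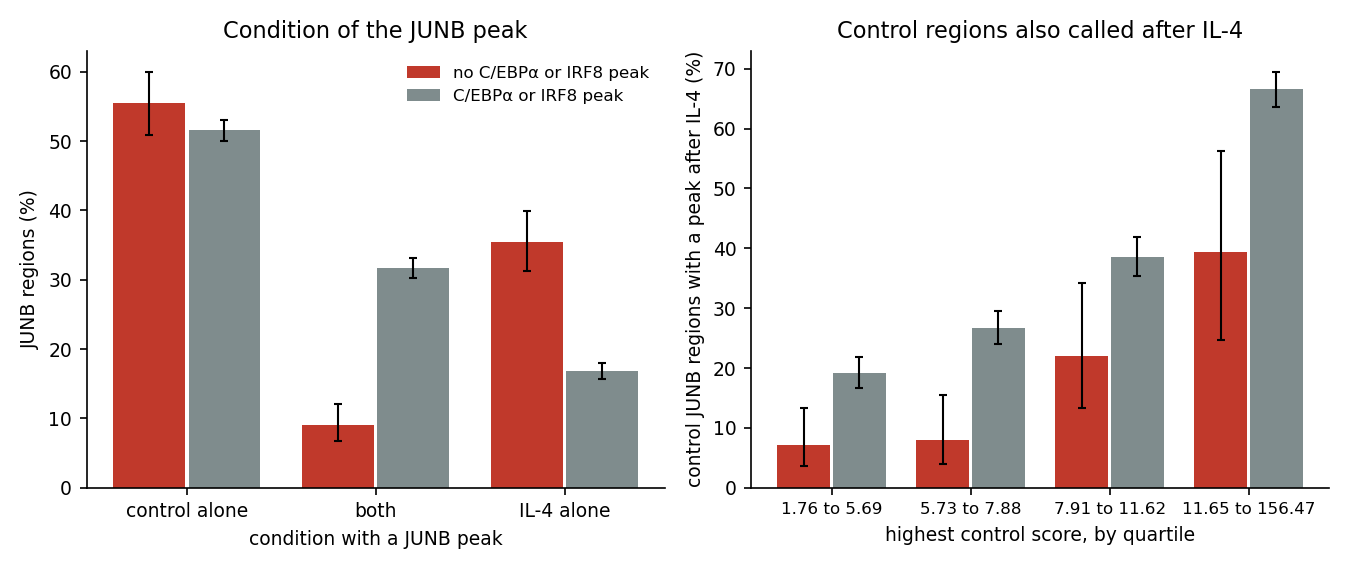
Condition of the JUNB peak in regions without (red) and with (grey) a C/EBPα or IRF8 peak. Left, the share of regions (%) called in control alone, in both conditions and after IL-4 alone. Right, the share (%) of regions with a control peak that also had a peak after IL-4, by quartile of the control score. Bars start at 0, and error bars are Wilson 95% intervals over regions. Red bars are lower for both conditions and in all 4 score quartiles, for example 39.4% against 66.6% in the highest.

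The score of the peak moved with this. Of the 293 JUNB-only regions with a control peak, 41 (14.0%, 10.5 to 18.4) also had a peak after IL-4, against 38.1% of the partnered regions with a control peak. Split by control score, the shares were 7.08% against 19.2% in the lowest quartile, 7.95% against 26.7% and 22.0% against 38.6% in the middle quartiles, and 39.4% against 66.6% in the highest. The interval of the difference left out 0 in each of the 4 quartiles. Read from the other list, 20.3% of the 202 JUNB-only regions with an IL-4 peak also had a control peak, against 65.4% of partnered regions. The joining of JUNB peaks by a C/EBPα or IRF8 peak favours higher shares in partnered regions here too. The excess of IL-4-alone regions belonged to low scores. It was 15.8 points (8.50 to 22.9) and 9.89 points (2.71 to 18.4) in the lower pair of quartiles of the highest JUNB score, and 1.12 points (-4.50 to 10.5) in the next. In the highest quartile 0 of 43 JUNB-only regions were called after IL-4 alone, against 3.02% of partnered regions, and control-alone regions made up 65.1% against 31.8%.

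JUNB-only regions had low peak scores, a deposited measure without a stated unit. The highest JUNB score of a region had a median of 5.455 (quartiles 4.07 and 7.51, range 1.49 to 26.7), against 7.63 (5.40 and 11.37, range 1.5 to 156.47) in partnered regions. Between the quartiles of all JUNB regions by score, the share without a partner fell from 17.0% (scores 1.49 to 5.26) through 10.8% and 6.08% to 3.58% (scores 10.99 to 156.47). Within the JUNB-only regions the median was 5.94 for the 252 control-alone peaks and 4.22 for the 161 IL-4-alone peaks. Scores repeated exactly, since 25 regions had a control score of 6.79 and 20 had an IL-4 score of 4.22. The peaks were also narrower, with a median width of 178 bp against 210 bp, and a narrow peak has fewer bases with which to overlap another. The part of width and score in the absence of a partner was not tested.

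**Figure D2:**
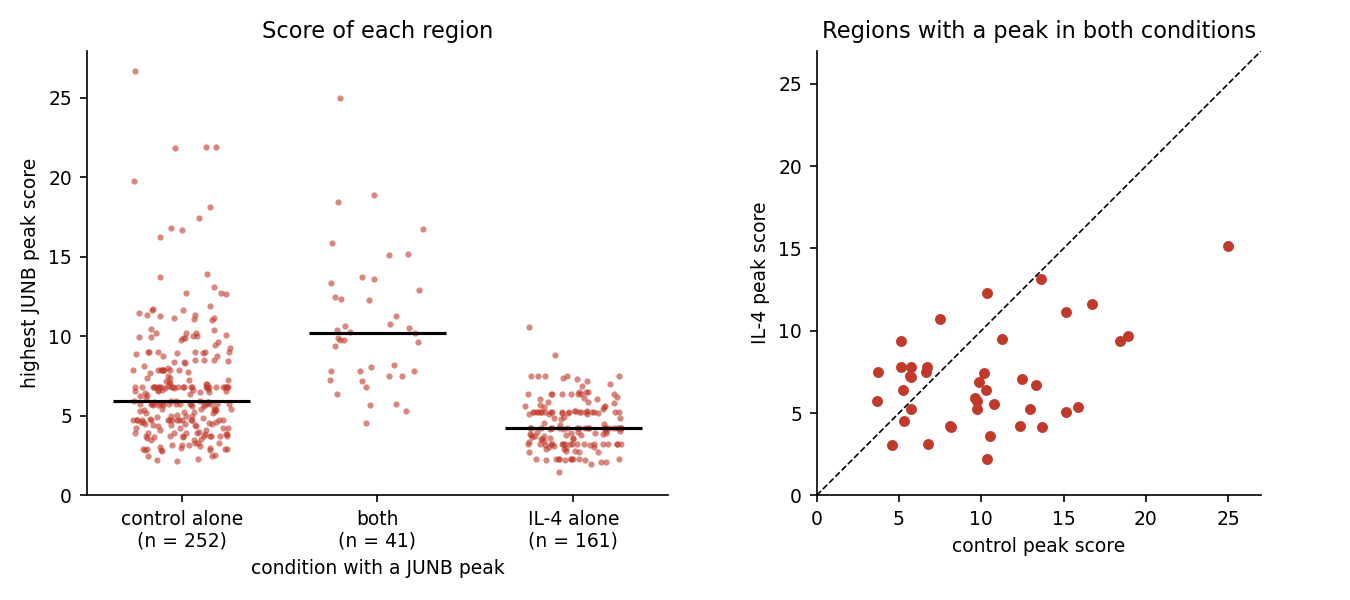
Peak scores of the 454 JUNB-only regions. Left, the highest JUNB score (deposited score, no stated unit) of each region by the condition in which it was called, with each point a region and the line the median (5.94 for control alone, 4.22 for IL-4 alone). Right, IL-4 against control score for the 41 regions called in both, with the dashed line marking equal scores. Most points lie below the line.

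In the 41 regions called in both conditions, the control score had a median of 9.88 (range 3.65 to 24.99) and the IL-4 score a median of 6.70 (2.23 to 15.13). The median log2 ratio of IL-4 over control was -0.58 (95% order-statistic interval -0.94 to -0.12), against -0.54 in partnered regions. With each score divided by the median of its own list, which was 7.88 in control and 6.21 after IL-4, it was -0.24 with an interval that included 0 (-0.60 to 0.22). Taking a change as a ratio more than 15% above 1 or below its inverse, the IL-4 score was lower in 27 of the 41 (65.9%, 50.5 to 78.4) and higher in 11 (26.8%, 15.7 to 41.9), with 3 in between. Over all 1420 JUNB regions called in both conditions, 65.9% were lower and 19.7% higher, so the JUNB-only regions had the same share of lower scores as the whole. The strongest of them was the repeat near 5031425F14Rik, with 24.99 in control and 15.13 after IL-4. Clvs1 had 18.88 and 9.66, and 4933433H22Rik had 16.75 and 11.61. D6Ertd474e scored 15.85 and 5.38, Ccdc9 15.17 and 5.09, 8430427H17Rik 15.14 and 11.13, and Pdcd4 13.70 and 4.15. All 8 highest-scoring regions of this class had the lower score after IL-4, and none lay in a promoter. These 8 were ranked on the higher of their control and IL-4 scores. Control scores ran higher as a list, so the ranking favours a lower score after IL-4.

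Among regions called in control alone, the highest score was 26.70 at chr1:80641878-80642255, in intron 2 of 55 of Dock10. The region of Sun1, a nuclear envelope protein that links the nucleus to the cytoskeleton, scored 21.92 in an intron 203 bp from the transcription start site (TSS). Fam133b scored 19.77 in an intron of Cdk6, and Dnttip1 scored 18.15 on a LINE in its own intron. Tnc, the matrix glycoprotein tenascin C, scored 16.79 at an intergenic region at -40851 bp from its TSS. The other 3 of the 8 were the TTG or CAA repeats near Nyap2 (21.92), Rgmb (21.84) and Slitrk1 (17.42). After IL-4 alone, Ap1b1, which encodes a clathrin adaptor subunit, had the highest score of 10.60, in intron 2 of 22. Gm5591 scored 8.85 on a repeat of CCTAA units. Acyp2, Apob, Rchy1 and Dera all scored 7.51, and Hhip scored 7.40. The best score after IL-4 alone was thus below the eighth score of the control-alone class.

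The AP-1 site was about as frequent in JUNB-only as in partnered regions. In the 200 bp around the peak centre, read on both strands, 216 JUNB-only regions held TGACTCA (47.6%, 43.0 to 52.2), against 45.0% of partnered regions (difference 2.57 points, -2.22 to 7.40) and 11.4% of all merged regions of the series. Allowing any middle base (TGANTCA), the shares were 52.9% and 52.7%. The cyclic AMP response element TGACGTCA, which ATF and CREB dimers prefer, was in 2 JUNB-only regions (0.441%) and 0.505% of partnered regions. The result depended on how the site was counted. Over the whole merged region, which is wider where several peaks were joined (median 450 bp against 179 bp), the site was less frequent in JUNB-only regions (-5.25 points, -10.0 to -0.417).

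At matched JUNB score the AP-1 share of JUNB-only regions was equal or higher. It was 32.7% against 31.7% in the lowest score quartile, 58.9% against 42.8% in the second (a difference of 16.1 points, 6.77 to 24.9), 63.0% against 52.5% in the third and 62.8% against 51.7% in the highest, and the interval included 0 in all but the second. By condition, 29 of the 41 regions called in both held a site (70.7% against 50.3% in partnered regions, 20.4 points, 4.97 to 32.4), as did 140 of the 252 called in control alone (55.6% against 45.6%, 9.95 points, 3.44 to 16.3). Of the 161 called after IL-4 alone, 47 did (29.2% against 33.1%, with an interval of -11.3 to 4.23 points). Within the JUNB-only regions, the share was 26.4 points higher in control-alone than in IL-4-alone regions (16.7 to 35.2), and the scores of these classes differed as given above.

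The sites of other macrophage factors were sparse in JUNB-only regions. The rule left out regions with a C/EBPα or IRF8 peak, while every partnered region holds one. It thus favours fewer C/EBP, IRF and PU.1-IRF sites in JUNB-only regions. The same selection can bear on sites that accompany such peaks, and PU.1, RUNX and STAT sites were not tested apart from it. All these shares are descriptions. The C/EBP dyad TTGCNNAA was in 5.95% of JUNB-only regions and 17.5% of partnered regions (-11.6 points, -13.7 to -8.76). The composite PU.1-IRF site GGAANNGAA was in 3.08% against 14.6% (-11.5 points, -13.1 to -9.21). The PU.1 site GAGGAAGT was in 3.52% against 10.7%, and the IRF repeat GAAANNGAA was in 4.19% against 9.86%. The RUNX site AACCACA was in 5.29% against 11.5%. The STAT palindrome, TTC and GAA spaced by 3 or 4 bases, was in 10.1% against 15.5% (-5.37 points, -8.06 to -2.09). The intervals of all 6 differences left out 0. Those of the MAF site TGCTGACT, which overlaps an AP-1 site when CA follows (2.42% against 2.78%), the E-box CACGTG (3.08% against 3.40%), the CTCF core AGGGGGC (2.64% against 2.11%) and the C/EBP-ATF hybrid TGATGCAA (0.441% against 1.52%) included 0. A letter match is a description and not a bound site, and 38 differences in shares were computed against all partnered regions, of which 15 had an interval that left out 0. A further 110 were computed by partner kind, score, condition and retention, of which 69 did.

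**Figure D3:**
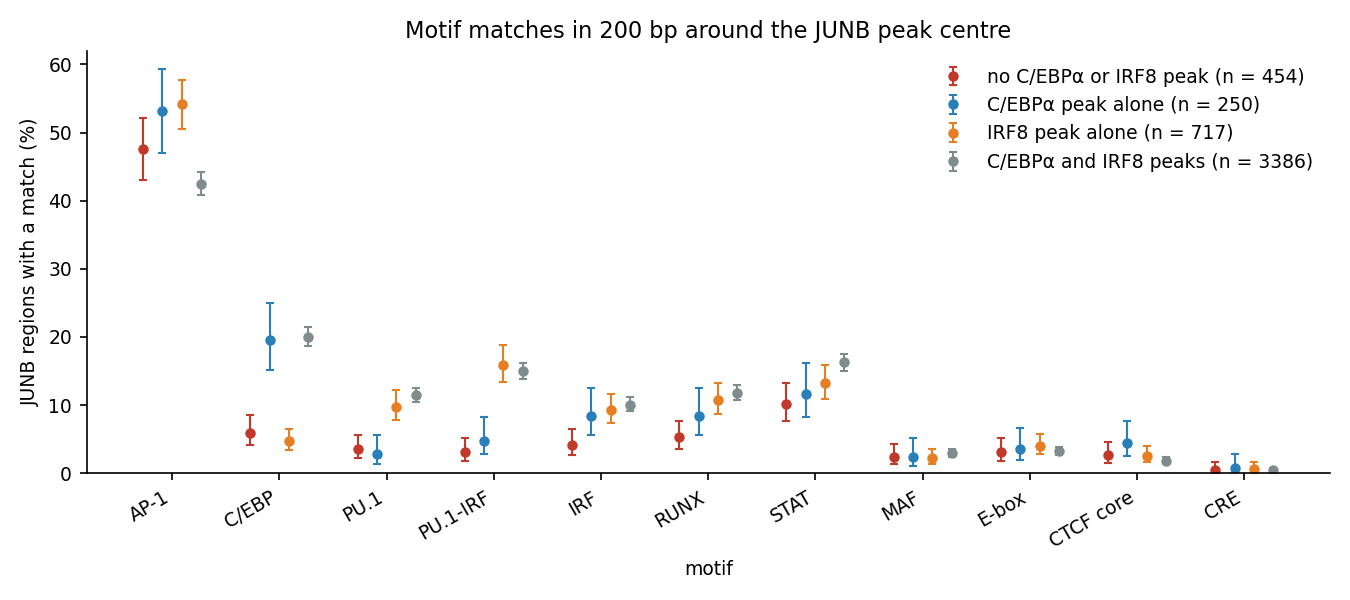
Share of JUNB regions (%) with a motif match in the 200 bp around the peak centre, for JUNB-only regions (red), regions with a C/EBPα peak alone (blue), an IRF8 peak alone (orange) and both (grey). Points are shares and bars are Wilson 95% intervals over regions. JUNB-only regions are low for C/EBP and PU.1-IRF sites, and AP-1 shares lie between 42.5% and 54.1%.

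The kinds of partnered region differed from the JUNB-only regions in different sites. Regions with C/EBPα alone had the C/EBP dyad in 19.6% (a difference of -13.7 points, -19.3 to -8.52), whereas their PU.1 share of 2.80% differed by 0.72 points with an interval that included 0 (-2.44 to 3.29), as did their PU.1-IRF share of 4.80%. Their IRF repeat share of 8.40% was higher than in JUNB-only regions (-4.21 points, -8.58 to -0.586). Regions with IRF8 alone had the C/EBP dyad in 4.74%, with an interval of the difference that included 0 (-1.37 to 4.10), but PU.1-IRF composites in 15.9% (-12.8 points, -15.9 to -9.60) and RUNX sites in 10.7% (-5.45 points, -8.46 to -2.24). AP-1 sites were in 53.2% of regions with C/EBPα alone, 54.1% of those with IRF8 alone and 42.5% of those with both factors. The JUNB-only share differed by -6.54 points from that with IRF8 alone (-12.4 to -0.663) and by 5.11 points from that with both (0.256 to 9.99). Matched for score, the deficits of the C/EBP and PU.1 sites kept intervals without 0 in the lower 3 quartiles, and that of the PU.1-IRF composite in all 4. The deficit of the IRF repeat did so in quartiles 2 and 3 alone, and those of the RUNX and STAT sites in quartile 1 alone. In the other quartiles the IRF, RUNX and STAT differences stayed negative, with intervals that included 0. Matching for JUNB score leaves the selection on C/EBPα and IRF8 peaks in place in every quartile. These values therefore cannot separate the deficits from that selection.

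Repeats were more frequent under JUNB-only peaks. By the deposited detailed annotation, 138 lay on a repeat (30.4%, 26.3 to 34.8), against 20.9% of partnered regions (9.49 points, 5.26 to 14.0). This excess was not seen against regions with IRF8 alone, of which 30.4% lay on a repeat (difference -0.008 points, -5.34 to 5.45). Simple repeats were at 33 JUNB-only regions (7.27% against 3.70%, 3.57 points, 1.44 to 6.38), SINEs at 26 (5.73% against 2.89%, 2.83 points, 0.963 to 5.41) and LINEs at 35 (7.71% against 5.08%, 2.63 points, 0.408 to 5.52). LTR elements were at 31 (6.83% against 6.55%), with an interval that included 0. AP-1 sites were in 61.5% of the JUNB-only SINEs (16 of 26, 42.5 to 77.6), 38.7% of the LTR elements (12 of 31), 17.1% of the LINEs (6 of 35), 12.1% of the simple repeats (4 of 33) and 54.7% of regions on no repeat (173 of 316). The highest-scoring region was the one near 5031425F14Rik among simple repeats, Dnttip1 among LINEs, D6Ertd474e on an RLTR18 element among LTRs and Itsn1 on a B1_Mus2 element among SINEs, with 12.5 in control and 7.07 after IL-4.

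**Figure D4:**
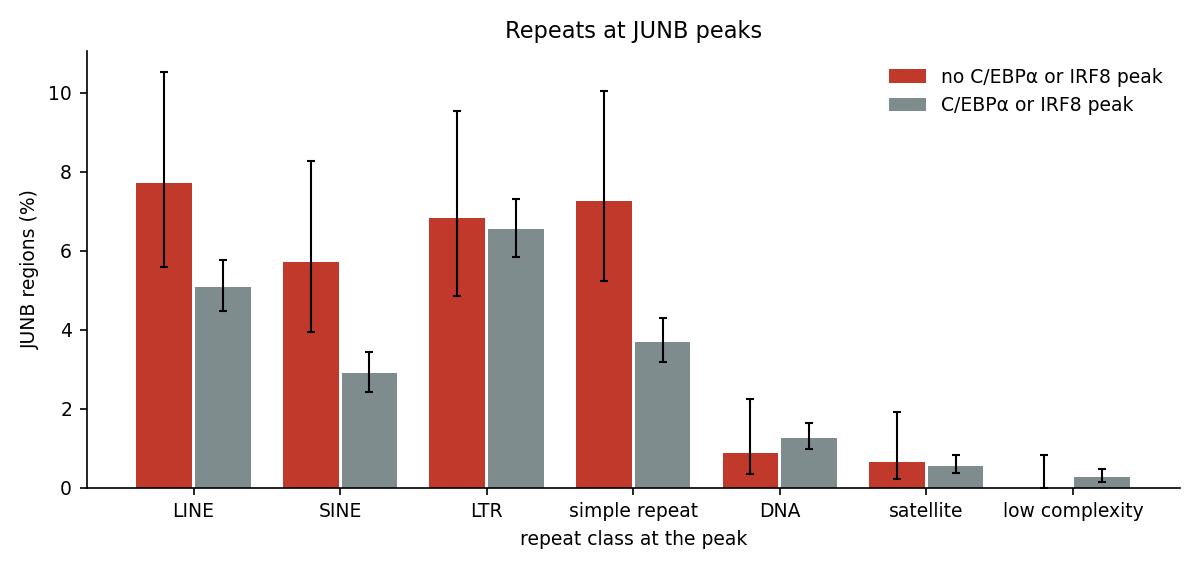
Share of JUNB-only (red) and partnered (grey) regions (%) whose highest-scoring JUNB peak carried each repeat class in the deposited annotation. Bars start at 0, and error bars are Wilson 95% intervals over regions. Simple repeats, SINEs and LINEs are more frequent in red, and LTR elements are nearly level at 6.83% and 6.55%. Grey pools all kinds of partnered region, and those with IRF8 alone had simple repeats in 7.53% and SINEs in 6.42%.

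The CAA and TTG repeats formed a group of their own, described after their values were seen. They held 10 JUNB-only regions and 0 of the 4353 partnered regions, which allows a share of up to 0.0689% there by counting error. All 10 were called in control alone, none held an AP-1 site, and their scores ran from 6.79 to 21.92 with a median of 11.4. They lay in intergenic sequence (8) or introns (2), at a median of 159792 bp from the nearest C/EBPα or IRF8 peak. Peaks annotated as CAA or TTG repeats anywhere in the genome were also counted in the other lists. The JUNB IL-4 list had 0, the IRF8 lists had 4 in control and 5 after IL-4, and the C/EBPα lists had 1 and 0. By the rule, none of these IRF8 and C/EBPα peaks overlapped the 10 regions. The CCCTAA and TTAGGG repeats held 4 JUNB-only and 80 partnered regions, and 67 of those 80 were called in both conditions. Over all JUNB regions 9.44% were JUNB-only, and of the JUNB regions in the highest score quartile 3.58% were JUNB-only. The median score of the 80 was 16.6, so their count is not read as a trait of the repeat. Without the CAA and TTG repeats the excess of simple repeats was 1.48 points with an interval that included 0 (-0.326 to 4.01). Short-read alignment to tandem repeats is uncertain, and its part in these peaks was not tested.

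Most JUNB-only regions lay within 10000 bp of a C/EBPα or IRF8 peak, whether or not JUNB was bound there. The lists hold 49098 C/EBPα and 79601 IRF8 peaks, and how often other sequence lies this close to one was not tested. The nearest C/EBPα or IRF8 peak was 1 to 782933 bp away, with a median of 3283.5 bp, and it was within 500 bp of 76 regions (16.7%), 1000 bp of 114 (25.1%), 10000 bp of 325 (71.6%) and 100000 bp of 426 (93.8%). The nearest peak was of IRF8 in 63.9%, and IRF8 supplied 61.9% of all C/EBPα and IRF8 peaks. At the limit of the rule, 4 JUNB-only regions were within 10 bp of such a peak, the closest at 1 bp, and 3 partnered regions overlapped theirs by at most 10 bp, the smallest overlap being 5 bp.

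The content of the regions varied with this distance. AP-1 sites were in 44.7% of the 76 regions within 500 bp of a C/EBPα or IRF8 peak, 73.7% of the 38 regions from there to 1000 bp, 54.0% of the 211 up to 10000 bp, 37.6% of the 101 up to 100000 bp and 7.14% of the 28 beyond. Repeats were in 18.4%, 26.3%, 28.4%, 33.7% and 71.4% of the same bands. The most remote regions were thus mostly repeats without an AP-1 site. Restricted to JUNB-only regions over 10000 bp from a partner peak, the AP-1 share was below that of partnered regions (-14.0 points, -21.5 to -5.43).

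**Figure D5:**
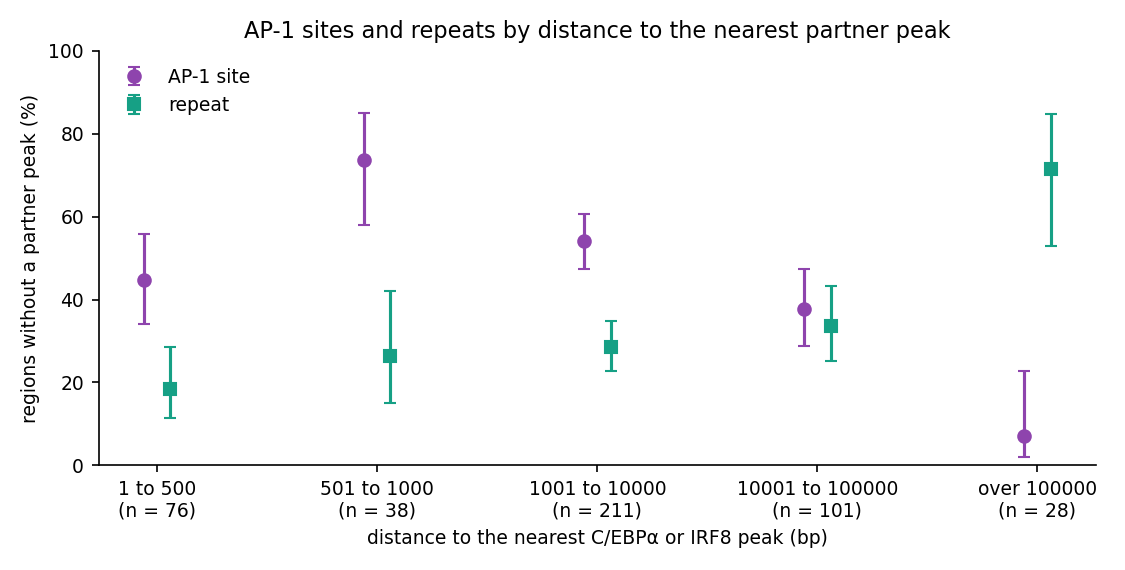
AP-1 sites (purple circles) and repeats (green squares) in the 454 JUNB-only regions, as a share of regions (%) in bands of distance in bp to the nearest C/EBPα or IRF8 peak. Bars are Wilson 95% intervals over regions. AP-1 sites are most frequent beyond 500 and up to 1000 bp (73.7%) and repeats in the 28 regions beyond 100000 bp (71.4%).

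JUNB-only regions lay mostly in introns and between genes. The deposited annotation placed 215 in introns (47.4% against 44.3% of partnered regions), 203 in intergenic sequence (44.7% against 49.6%, -4.84 points, -9.59 to -0.006), 17 in promoters (3.74% against 2.96%, 0.781 points, -0.716 to 3.0), 8 at transcription termination sites, 5 in 3′ UTRs, 3 in exons, 2 in 5′ UTRs and 1 in a non-coding gene. The intergenic interval nearly reached 0. The median distance to the TSS was 30003 bp against 25395 bp. Regions within 1000 bp of a TSS were slightly more frequent (27 regions, 5.95% against 3.91%, 2.04 points, 0.112 to 4.66), and for those beyond 100000 bp the interval included 0 (18.7% against 15.5%).

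The promoter regions had modest scores and were each called in 1 condition. So were most JUNB-only regions, of which 9.03% were called in both. The highest was at 4921507L20Rik (7.28 in control), followed by Sap30bp (7.18 after IL-4), Mbd6 of the methyl-CpG-binding domain family (6.79 in control) and Rn4.5s (6.15 after IL-4). Arl6ip5 scored 5.95, Mir1956 5.93, the cytoskeletal linker gene Plec 5.69, Hist4h4 5.60, the translation initiation factor gene Eif3a 4.71 and Zfp219 4.26, all in control alone. Ptp4a1 and Iqcf1 each scored 4.22 after IL-4 alone. Of these 12 promoters, 7 held an AP-1 site, namely those of 4921507L20Rik, Sap30bp, Arl6ip5, Mir1956, Plec, Zfp219 and Iqcf1. This count leaves out the promoters not named, and 47.6% of all JUNB-only regions held a site.

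Few JUNB-only regions shared a gene. The 454 regions had 436 distinct nearest genes, 18 genes had 2 regions each and none had 3 or more. The nearest gene of 192 regions (42.3%) was also nearest to a partnered JUNB region. A nearest gene is an assignment by distance and not a measured target.

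Among the gene lists, AP-1 and related genes held 4 JUNB-only regions of 29 JUNB regions (13.8%, against 9.44% of all JUNB regions). These were Junb itself, Jund, Fosl2 and Nfe2l2, and the region near Junb, Jund and Fosl2 was the only JUNB region assigned to each. The Jund region, in its 5′ UTR by the deposited annotation, scored 9.91 in control alone and held no AP-1 site. The Junb region lay 3029 bp from the TSS on a B3A SINE, scored 4.86 in control alone and also held none. The Fosl2 region lay in an intron of Babam2, scored 4.22 after IL-4 alone and held 2 sites. Nfe2l2, the oxidative stress regulator NRF2, had an intronic region on a B3 SINE with 8.74 in control alone and 1 site.

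Genes of alternative activation, the macrophage program set by IL-4, held 3 JUNB-only regions of 23 (13.0%). Tgm2, a transglutaminase and marker of that program, had a control-alone region with a score of 6.15. Egr2, a transcription factor induced by IL-4, had an IL-4-alone region with 4.24, and Flt1, a VEGF receptor, had an IL-4-alone region with 2.27. Each held an AP-1 site. They lay at -21711, -49244 and -34204 bp from the TSS of Tgm2, Egr2 and Flt1. Partnered JUNB regions nearest to the same genes scored higher, reaching 8.74, 6.93 and 8.35 in control. None of the 10 JUNB regions at the activated genes that the study names was JUNB-only, and of the 18 at its repressed genes 1 was, near Lyz2, the lysozyme gene (4.26 in control alone, on an LTR element).

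Macrophage lineage genes held 2 of 17 (11.8%). These were Irf8 itself (4.80 in control alone, with an AP-1 site 7.5 bp from the centre and a partner peak 525 bp away) and Runx1 (4.60 in control alone, with a site). Inflammatory genes held 2 of 30 (6.67%), which were Il10, encoding the anti-inflammatory cytokine, with an intronic region of 6.78 in control alone and 1 site, and Ccl2, a monocyte chemokine, with 3.65 in control alone and none. Actin and adhesion genes held 2 of 22 (9.09%), near the hyaluronan receptor gene Cd44 (2.96) and the lamin gene Lmna (2.77), both in control alone with 1 site. Matrix enzymes held 0 of 4. At Runx1, Il10, Ccl2, Cd44 and Lmna, partnered JUNB regions nearest to the same gene reached 15.41, 8.86, 20.02, 28.68 and 11.40 in control. At each of these genes the JUNB-only region was the weaker one. The same held at Nfe2l2 and Lyz2, where partnered regions reached 9.46 and 8.32 in control. With 4 to 30 JUNB regions in each list, these shares are descriptions.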

How the data were processed

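The 6 deposited lists hold 1 peak per line for C/EBPα, IRF8 or JUNB in control or IL-4-treated BMDMs. The submitters' processing notes name BWA 0.7.10, SAMtools 0.1.19, HOMER 4.2, MACS2 2.0.10 and the mm10 build. Peaks were called per sample and annotated by the authors. The score of each peak is used as the authors deposited it, and its unit is not given in the sources used here. Depth is unknown, so precision over replicates cannot be given. Peaks were merged at 1 bp, and annotation, repeat, gene and distance were those of the highest-scoring JUNB peak of a region. Motifs were read from the GRCm38 reference in 200 bp around that peak's centre. The build was checked: 0 peaks ended past their chromosome, and 174 of 175 JUNB peaks annotated as promoter lay within 1000 bp of a GENCODE transcript start. Starts are as written in the files, which leaves 1 bp of uncertainty. Shares carry Wilson 95% intervals and differences Newcombe 95% intervals, called where they left out 0. The samples were grouped by their labels. The regions, gene lists and naming rule (the 8 highest scores per condition class, up to 12 promoters, listed genes, the top region of each larger repeat class, and no region of chromosome 18, which held 11) were chosen with earlier results of these data known. Some regions that the rule names are counted and not reported by name here. Alternatives changed the overlap, partner distance, score limits, peak width, rank matching, annotation and motif window. Scripts used pandas 2.3.3 with numpy 2.4.6 on Python 3.11.15, figures used matplotlib 3.10.9, and merging and intervals were checked against bedtools 2.31.1 and scipy 1.17.1 on simulated data, where all 6 checks passed.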

Additional observations from a re-analysis of the deposited data

How the results depend on the processing

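Of 160 recomputed values, 118 kept their direction and their call or, for counts and medians, stayed within 1.5 times the count or within the interval of the median. The median log2 score ratio stayed negative, but its interval included 0 with scores divided by the list median (-0.24) and with JUNB scores of at least 5 (-0.49) or 8 (-0.49). No paired analysis was possible because each antibody and condition had 1 sample and the labels carry no replicate numbers, and for the same reason no replicate could be left out. The number of JUNB-only regions was 273 with JUNB scores of at least 5, 94 at 8 or more and 290 with the control list cut to its top 2325 peaks (rank matching), since fewer peaks enter. Under these settings the median highest score was 6.79, 10.51 and 6.365, and the median distance to the TSS was 37825 bp at 8 or more. The deficit of regions called in both conditions kept its sign in all 18 alternatives, 5 of them (the control-score quartiles and regions outside repeats) chosen after seeing the data, and its interval included 0 in the third score quartile (-9.74 points). The excess for IL-4 alone was 1.12 points in the third quartile, -3.02 in the fourth and -6.77 with JUNB scores of at least 8. The difference for control alone was 7.59 points with JUNB scores of at least 5, 20.9 at 8 or more, 4.53 with partner scores of at least 5, 33.3 in the fourth quartile, -4.53 with rank matching and -12.2 in the lowest quartile. The repeat excess was 6.67 points in the second quartile, and the simple-repeat excess 1.48 points without CAA and TTG repeats, a setting chosen after seeing the data. The AP-1 difference was 8.78 points with JUNB scores of at least 5, 10.7 at 8 or more, 7.40 outside repeats, 5.51 with partner scores of at least 5, 16.1 in the second quartile, -2.96 with rank matching, -5.25 over whole regions and -14.0 for regions over 10000 bp from a partner, the last chosen after seeing the data. The intergenic difference had an interval including 0 with JUNB scores of at least 5 (-5.93 points) or 8 (-9.71), a partner within 500 bp (-3.61) or 1000 bp (-3.77), merging at 50 bp (-4.69) and in quartiles 1, 2 and 4 (-0.443, -2.53 and -5.86). The promoter difference was 2.56 points with partner scores of at least 5, and negative at JUNB scores of at least 8 (-1.76), with a partner within 500 bp (-0.425) or 1000 bp (-0.42), and in quartiles 1, 3 and 4 (-0.188, -2.66 and -1.38). Apart from the smaller number of peaks, the cause of these changes was not tested. The unknown depth, the absence of replicates and the unit of the score limit every comparison.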
